A study of Mus musculus with 4 samples.

Results

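The collagen genes of mouse small intestinal stromal cells were taken as every row of the processed expression table whose symbol is Col, a number, a and a number, which gave 24 of 3891 complete gene rows. Other collagen genes are not analysed here. The table held stromal cells of wild type C57Bl/6 mice, 8 weeks old by the labels, sorted from the small intestine as live gp38+ (PDPN) cells that lacked CD45, CD31 and EpCAM. All groups shared this genotype, age and sort, and no treatment was given. The cells came as 2 10X Genomics libraries (10X 1 and 10X 2, 2547 and 14344 cells, droplet capture with unique molecular identifiers, UMIs) and 2 Smartseq2 plates (360 and 379 cells), whose values had been shifted onto the 10X values and are not used here. The number of mice behind a library was not given, so the spread between the 2 libraries, which may be technical, is the only error available.

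Cells were grouped by the genes with a UMI. Cells with Sox6 were called subepithelial (285 cells in 10X 1 and 2699 in 10X 2), and were split into those with Wif1 (114 and 817), those with Adamts18 (18 and 174), those with neither (153 and 1704) and those with both (0 and 4, not used). Of the remaining cells, those with at least 3 of Inmt, Penk, Vit and Scara5 were called mesothelial-like (331 and 1107), those with at least 3 of Chodl, Dner, Thbs2 and Ptn Fibin type (100 and 697), those with Grem1 crypt (1021 and 4837) and those with Lpl villus (611 and 3699). No rule took 199 and 1305 cells. The Adamts18 cells of 10X 1 are few, and every value on them in that library rests on 18 cells.

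The names were checked against markers that the rule did not use. Among the 5 groups, all 5 mesothelial-like markers (Wt1, Igfbp6, Ebf1, Gpc3, Ace) and all 5 Fibin type markers (Fibin, Fxyd6, Jam2, Kcnn3, Angptl2) were highest in their own group in both libraries, as were 5 of 6 subepithelial markers and 5 of 6 villus markers. Tnc was higher in the Fibin type than in the subepithelial cells, and Aldh1a3 was highest in the Fibin type in 10X 1 (6.88 against 3.23 UMIs per 10000). Lama5, Foxl1 and Ednrb were highest on the Adamts18 side of the subepithelial cells, and Smoc2, Ednra and Chrd on the Wif1 side, in each case among the subepithelial cells. Smoc2 was higher still in the Fibin type (9.36 and 9.32 against 7.62 and 4.90). The crypt markers went against their name in part: 0 of 6 (Ackr4, Prss23, Svep1, Fmo2, C3, Postn) were highest in the crypt cells of both libraries, with the mesothelial-like cells above them for each gene in at least 1 library, although 6 of 6 were higher in crypt than in villus cells. The rule also leaves mixed detection, since Lpl had a UMI in 84.9% and 82.1% of subepithelial and in 47.8% and 55.1% of crypt cells. Median totals differed between groups, from 7939 and 5982 UMIs per cell in villus to 11064 and 8299 in subepithelial cells, and 7 cell barcodes occurred in both libraries.

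Collagens are triple-helical proteins built from 3 chains, alike or different, with each kind of chain encoded by its own gene. Fibrillar collagens such as types I, III and V form the banded fibres that carry tension, while fibril-associated collagens (FACIT) lie along the surface of those fibres. Type IV collagen forms the sheet of basement membranes, type VI forms beaded filaments close to cells, type VIII forms hexagonal lattices, and transmembrane collagens stay anchored in the plasma membrane. In the gut wall, fibroblasts and subepithelial cells lay down the matrix beneath the epithelium. The 24 genes comprised 7 fibrillar, 5 FACIT, 4 transmembrane, 3 type VI, 2 type IV and 2 type VIII genes and 1 multiplexin gene.

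Levels below are UMIs of a gene per 10000 UMIs, summed over the cells of a group in 1 library, with 10X 1 given before 10X 2. The summed level of all 24 genes was highest in mesothelial-like (305.0 and 208.4) and crypt cells (289.8 and 224.2), intermediate in villus (182.7 and 161.4) and subepithelial cells (145.6 and 142.0), and lowest in the Fibin type (106.0 and 116.1). Mesothelial-like and crypt cells overlapped with each other, and both lay above every other group in both libraries. The summed level of the 7 fibrillar genes ran from 97.1 and 104.1 in the Fibin type to 277.0 and 184.3 in mesothelial-like cells. The 2 libraries differed most where the level was highest. All 24 genes together gave 256.7 ± 68.3 (SD, n = 2 libraries) in mesothelial-like and 257.0 ± 46.4 in crypt cells, but 143.8 ± 2.56 in subepithelial and 111.0 ± 7.16 in Fibin type cells.

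**Figure D1:**
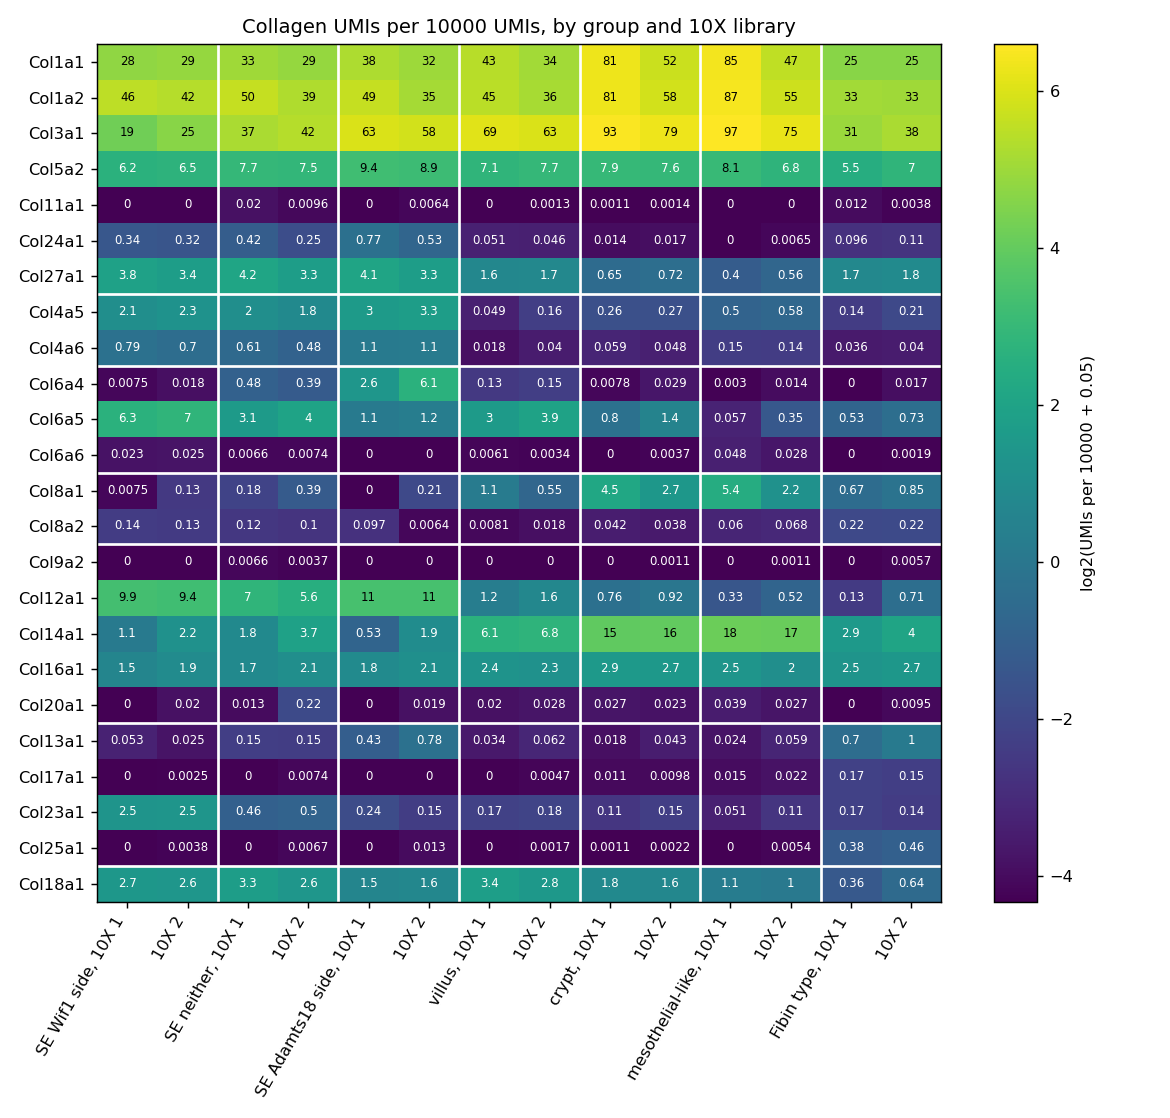
Level of each of the 24 collagen genes (rows, in blocks by collagen class) in 7 groups of cells and both 10X libraries (columns; SE, subepithelial), with the UMIs per 10000 printed in each cell and the colour on a log2 scale with 0.05 added. Col1a1, Col1a2 and Col3a1 were present in every group, whereas of the groups drawn Col6a4 was highest in Adamts18 cells, Col23a1 in Wif1 cells, and Col25a1 and Col17a1 in the Fibin type.

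Free RNA in droplet libraries leaves UMIs of abundant genes in cells that do not express them. Cells with at least 3 immune genes and in no group (3 and 48 cells, median totals of 1146 and 4219 UMIs) therefore give a background, although leaving out every cell with Grem1, Lpl or Sox6 makes it a low one. In 10X 2 these cells held 2.13 UMIs per 10000 of Col1a1, 3.45 of Col1a2, 2.55 of Col3a1 and 0.850 of Col14a1, and between 0 and 0.945 of every other member. All fibroblast groups lay above these values for Col1a1, Col1a2 and Col3a1. The 3 cells of 10X 1 held too few UMIs to set a level.

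The abundant fibrillar genes Col1a1, Col1a2 and Col3a1 were highest in mesothelial-like and crypt cells, and the order of the other groups differed between them. Col1a1, a chain of type I collagen, was at 85.2 and 47.2 in mesothelial-like, 80.6 and 52.2 in crypt, 42.5 and 33.5 in villus, 31.1 and 29.2 in subepithelial and 25.3 and 24.9 in Fibin type cells. Col1a2, its partner chain, was again highest in mesothelial-like (86.6 and 54.8) and crypt cells (80.9 and 58.4), but subepithelial cells (47.9 and 39.7) stood beside villus cells (44.6 and 36.4) and above the Fibin type (33.5 and 32.8). Col3a1, the type III chain of distensible tissue, was at 96.7 and 75.0 in mesothelial-like, 93.5 and 79.4 in crypt and 69.1 and 63.5 in villus cells. Fibin type (31.0 and 37.5) and subepithelial cells (31.2 and 37.2) had the lowest Col3a1 and did not separate from each other. Col5a2, a type V chain that sits inside type I fibrils, was flat by comparison, between 5.50 and 8.11 in every one of the 5 groups and both libraries.

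The remaining fibrillar genes ran another way. Col27a1, a fibrillar gene known from cartilage, was highest in subepithelial cells (4.04 and 3.34), followed by Fibin type (1.66 and 1.79) and villus cells (1.62 and 1.65), which were close but did not overlap, then crypt (0.652 and 0.724) and mesothelial-like cells (0.399 and 0.558). Col24a1 had the same highest group, at 0.410 and 0.292, and 0 and 6 UMIs in all in the mesothelial-like cells, where a count of 0 in 10X 1 allows up to 0.00907 UMIs per 10000. Col11a1 was nearly absent from the fibroblast groups, with at most 14 UMIs in any of the 5 groups of a library.

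**Figure D2:**
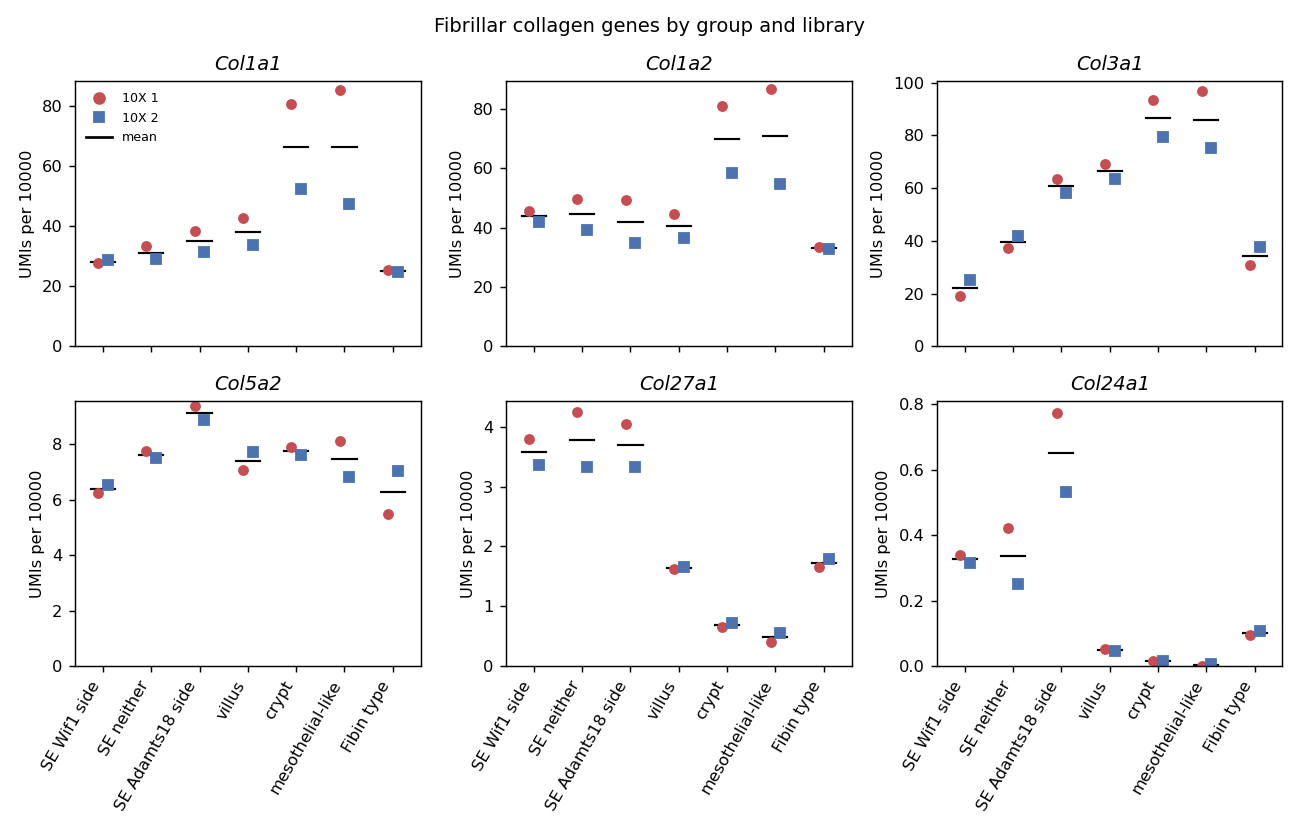
UMIs per 10000 of 6 fibrillar collagen genes (1 panel each, each with its own linear axis from 0) in 7 groups, with a circle for 10X 1, a square for 10X 2 and a line for their mean. Col1a1, Col1a2 and Col3a1 peaked in crypt and mesothelial-like cells, while Col27a1 and Col24a1 peaked in the subepithelial groups.

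The first comparison asked which collagens set the Sox6 subepithelial cells apart from the other 4 groups. Subepithelial cells carried more Col12a1, Col6a5, Col27a1 and the X-linked type IV genes Col4a5 and Col4a6, and less Col14a1, Col8a1 and Col3a1. Of the 24 members, 20 had a UMI in at least 5% of the cells of a group and were tested. Tests used natural log (ln) values, averaged over the cells of a group in each library. Among these 20, 10 were called higher (adjusted p under 0.05 and the same sign in both libraries) and 6 lower. Of all 1900 genes tested, 38.4% were called higher and 31.3% lower, so most genes tested differed here and the count of called members stood near that of all genes tested. The table holds 3891 complete gene rows, and the study merged its platforms on the most variable genes. Shares of all genes in this report therefore describe the table alone. The median difference was 0.048 over the tested members and 0.009 over all genes tested. Col6a4 reached the 5% only in subepithelial cells, and Col17a1 and Col25a1 only in the Fibin type, so each was admitted by the group where it is high and had to differ there. Over the other 17 members, 9 were called higher and 4 lower. The subepithelial group was defined by Sox6 alone, and no collagen was used.

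Col12a1, a FACIT that coats type I fibrils, was at 8.51 and 7.27 UMIs per 10000 in subepithelial cells and between 0.132 and 1.61 in the other 4 groups. No group overlapped with the subepithelial cells in either library. The level was 14.2-fold and 7.74-fold that of the mean of the other groups, and the mean ln value was higher by 1.56 (SD between libraries 0.22, SE 0.069, adjusted p = 1.11e-06). Cells with a UMI of Col12a1 made up 79.8% and 81.4% of the Wif1 cells, 72.2% and 79.8% of the Adamts18 cells, 66.2% and 57.2% of the subepithelial cells with neither marker and 17.3% and 24.9% of the villus cells once every cell was thinned to 2000 UMIs, while 98.8% of Wif1, 84.9% of neither-marker and 50.15% of villus cells of 10X 2 had one without thinning. Of the immune marker cells of 10X 2 deep enough to thin, 5.0% (0.611 to 16.9%) had a UMI of it, and 4.17% without thinning. Thinning left out between 0 and 85 cells of a group in a library, the most in villus cells of 10X 2.

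Col6a5, a chain of type VI collagen, was at 4.34 and 4.80 in subepithelial cells and at 3.01 and 3.86 in villus cells, the nearest group. Values in the other groups were far lower, down to 0.05745 and 0.350 in mesothelial-like cells. The mean ln value was higher by 0.89 (SE 0.037, adjusted p = 8.39e-07), a ratio of 3.95 and 3.02 to the mean of the other groups. For Col27a1 the ratio was 3.73 and 2.83 (difference 0.86, SE 0.050, adjusted p = 3.87e-06).

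Col4a5 and Col4a6 encode type IV chains that assemble with each other in specialised basement membranes. Their genes lie head to head on chromosome X, and their RefSeq start sites in GRCm38 stand 1342 bases apart. Col4a5 was at 2.12 and 2.08 in subepithelial cells, 0.502 and 0.583 in mesothelial-like, 0.264 and 0.270 in crypt, 0.144 and 0.212 in Fibin type and 0.0485 and 0.156 in villus cells. Col4a6 gave 0.722 and 0.6002, 0.145 and 0.140, 0.0589 and 0.0480, 0.0360 and 0.03975, and 0.0182 and 0.0401 in the same order of groups. Both genes therefore had subepithelial cells first and mesothelial-like cells next, without overlap in either library, and the lowest 2 groups did not separate for Col4a6. The differences were 0.77 (SE 0.025, adjusted p = 3.5e-07) for Col4a5 and 0.35 (SE 0.023, adjusted p = 7.94e-06) for Col4a6, which was singled out as the neighbour of Col4a5 after its values were seen.

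The 250 bases before each start site are printed because the pair share 1 intergenic stretch and rose in the same cells. Capitals mark matches on either strand to 4 short motifs, TATAAA (the TATA box), CCAAT (the CAAT box), GGGCGG (a GC box) and TGANTCA (an AP-1 site), which occur in 12.4%, 33.8%, 32.7% and 6.75% of all 32851 RefSeq promoters of this length (GRCm38.p6). Each sequence runs 5′ to 3′ on the strand of its gene. The first is chrX:141474077-141474326 on the minus strand and the second chrX:141475169-141475418 on the plus strand.
Col4a6: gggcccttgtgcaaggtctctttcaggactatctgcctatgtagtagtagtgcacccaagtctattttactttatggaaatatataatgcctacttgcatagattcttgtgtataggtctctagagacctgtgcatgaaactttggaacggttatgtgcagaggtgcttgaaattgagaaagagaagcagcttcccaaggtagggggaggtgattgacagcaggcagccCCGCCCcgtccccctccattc
Col4a5: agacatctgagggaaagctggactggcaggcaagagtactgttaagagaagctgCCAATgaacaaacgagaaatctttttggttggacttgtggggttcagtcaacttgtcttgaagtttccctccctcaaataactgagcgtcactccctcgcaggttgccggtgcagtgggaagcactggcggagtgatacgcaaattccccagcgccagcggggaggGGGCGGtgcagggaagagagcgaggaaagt
Each window held GGGCGG (as CCGCCC in Col4a6), the Col4a5 window also held CCAAT, and neither held TATAAA or TGANTCA. These matches are a description of letters, and GGGCGG is common in promoters.

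Of the genes that were lower in subepithelial cells, Col14a1 had the largest difference in mean ln value, and Col8a1 a larger ratio of levels in both libraries. This FACIT, a relative of Col12a1 that also binds the fibril surface, was at 1.39 and 3.085 in subepithelial cells, 2.89 and 4.05 in Fibin type, 6.15 and 6.80 in villus, 15.1 and 15.9 in crypt and 17.7 and 16.9 in mesothelial-like cells. Subepithelial cells had the lowest summed level in both libraries, with the 10X 2 value above the Fibin type value of 10X 1. In mean ln value the Fibin type was lowest, at 0.41 and 0.86 against 0.60 and 0.93 in subepithelial cells, and the order of these 2 groups therefore depends on the measure. The mean ln value fell by 1.13 (SE 0.10, adjusted p = 3.97e-05).

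Col8a1, a type VIII chain of vessel walls and other sheet-like matrices, was at 0.0919 and 0.291 in subepithelial cells and at 5.36 and 2.22 in mesothelial-like and 4.47 and 2.66 in crypt cells. Its level was 31.6-fold lower in 10X 1 but 5.41-fold lower in 10X 2 than the mean of the other groups (difference -0.61, SE 0.126, adjusted p = 0.00325). The direction held in both libraries, and the size did not. Col3a1 was 2.33-fold and 1.72-fold lower (difference -0.59, SE 0.093, adjusted p = 0.000825), and Col16a1, a FACIT, 1.55-fold and 1.21-fold lower (difference -0.18, SE 0.054, adjusted p = 0.017).

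The other called members were Col18a1, Col23a1, Col4a6, Col24a1, Col6a4 and Col8a2, higher by 0.024 to 0.45, and Col25a1 and Col17a1, with differences of -0.054 and -0.026. The last 2 had 0 UMIs in subepithelial cells of 10X 1 and 14 and 12 in those of 10X 2, and their other-group levels came mostly from the Fibin type, the 1 group through which both were admitted to the test. Of the called higher members, Col23a1, Col4a6, Col24a1 and Col6a4 had their highest level of the 5 groups in subepithelial cells in both libraries. Col18a1 and Col8a2 did not. Villus cells held more Col18a1 (3.41 and 2.79 against 2.92 and 2.53). Its mean ln value was nevertheless slightly higher in subepithelial cells (1.17 and 1.01 against 1.16 and 0.988). The Fibin type held more Col8a2 (0.216 and 0.221 against 0.128 and 0.107). The 4 members that were not called had differences from -0.26 (Col1a1, adjusted p = 0.0592) to 0.071 (Col5a2, adjusted p = 0.494). Col1a2 was among them, with levels 1.28-fold and 1.15-fold lower and a difference of -0.096 (adjusted p = 0.24).

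**Figure D3:**
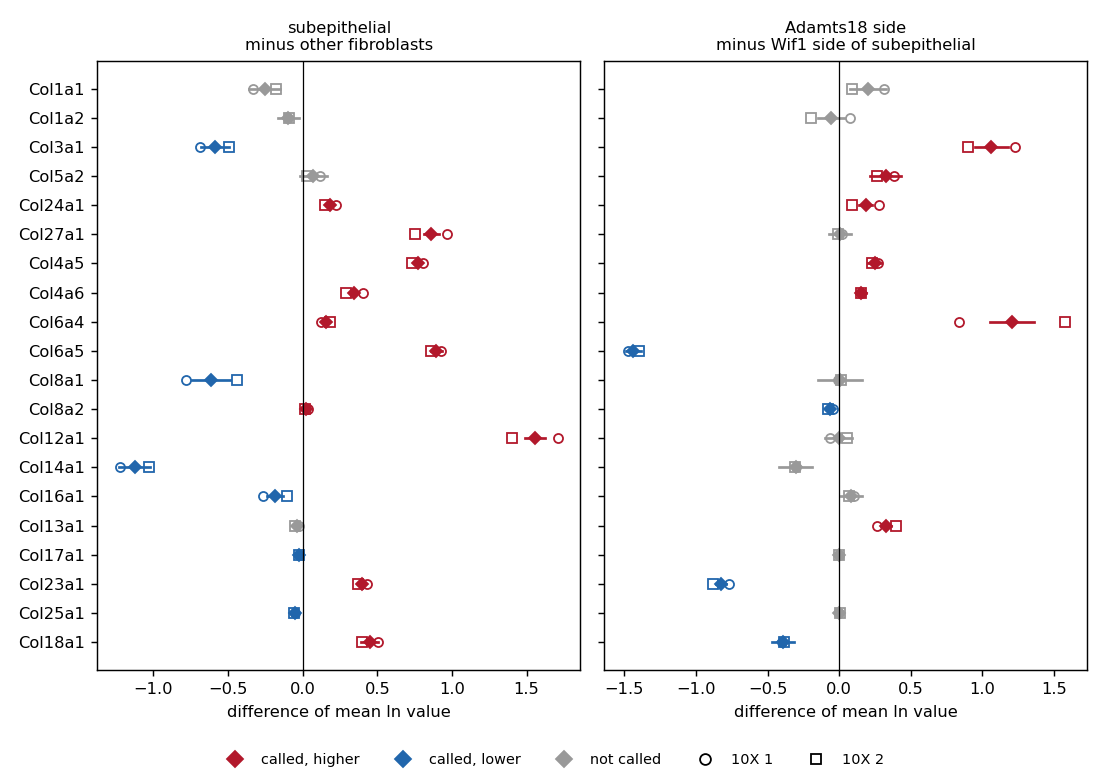
Difference of the mean natural log value for the 20 tested collagen genes, left for subepithelial cells minus the other groups and right for the Adamts18 side minus the Wif1 side, with filled diamonds and bars for the estimate and its standard error, open circles for 10X 1 and open squares for 10X 2. Col12a1 (1.56) and Col14a1 (-1.13) mark the ends on the left, and Col6a4 (1.21) and Col6a5 (-1.44) on the right.

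The study is concerned with the villus tip, and its table allows the Sox6 cells with Adamts18 to be set against those with Wif1. The Adamts18 side carried Col6a4 and more Col3a1 and Col13a1, and the Wif1 side carried more Col6a5, Col23a1 and Col18a1. Of the same 20 members, 7 were called higher and 4 lower on the Adamts18 side, while 14.1% of all 1982 genes tested were called higher and 15.4% lower. The median difference was 0.005 over members and -0.001 over all genes tested. Median cell totals were 11565.5 and 8590.5 UMIs on the Adamts18 side and 11976 and 9682 on the Wif1 side.

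Col6a4 and Col6a5, chains of type VI collagen that are built from adjacent genes, moved in opposite directions. On the Adamts18 side Col6a4 was at 2.61 and 6.14 UMIs per 10000 (54 and 957 UMIs), and on the Wif1 side at 0.00754 and 0.0178 (1 and 14 UMIs). Of the 2 sides, only the Adamts18 side reached the 5% for Col6a4, as did the cells with neither marker. The sides did not overlap, although the 2 libraries differed from each other on the Adamts18 side. The ratio was 346 in 10X 1, with an exact 95% interval for counting error of 59.5 to 13900 as it rests on 1 UMI, and 345 (205 to 634) in 10X 2. The mean ln value was higher by 1.21 (SD between libraries 0.53, SE 0.16, adjusted p = 0.000206).

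Col6a5 was at 1.06 and 1.19 on the Adamts18 side and at 6.31 and 6.97 on the Wif1 side, with no overlap. It was 5.94-fold and 5.84-fold lower on the Adamts18 side, and the mean ln value fell by 1.44 (SE 0.050, adjusted p = 4.68e-08). The cells with neither marker lay between, at 3.06 and 3.97 for Col6a5 and 0.482 and 0.390 for Col6a4. Their median totals were lower, at 10178 and 7636.5 UMIs. Whether they include cells of either side with an undetected marker was not tested. Col6a4 was at 0.125 and 0.153 in villus cells, at most 0.0295 in the crypt, mesothelial-like and Fibin type cells of either library, and at 0.398 and 0.124 in the cells of no group.

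Cells were also counted one by one. After thinning to 2000 UMIs, Col6a4 had a UMI in 33.3% (95% exact interval 13.3 to 59.0%) and 58.4% (50.7 to 65.8%) of Adamts18 cells, and in 0 of 114 and 0 of 812 Wif1 cells, where 3 counts of the total, the limit used here for a count of 0, are 2.63% and 0.369%. Without thinning the shares were 55.6% and 81.6% against 0.877% and 1.59%. None of the immune marker cells of either library had a UMI of Col6a4 (medians of 1146 and 4219 UMIs). Within the Adamts18 cells of 10X 2, thinned, 52.0% had Col6a4 alone, 10.4% Col6a5 alone, 6.36% both and 31.2% neither. Without thinning 48.3% had Col6a4 alone, 13.8% Col6a5 alone and 33.3% both, so the share with both genes depends strongly on depth. In the 10X 2 Wif1 cells 71.8% (thinned) had Col6a5 alone, and all 13 Wif1 cells with a Col6a4 UMI before thinning also had Col6a5. In the cells of 10X 2 with neither marker 3.92% had Col6a4 alone, 43.5% Col6a5 alone and 2.26% both after thinning, and 4.695%, 65.4% and 7.92% before.

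The genes of these chains lie in a row on the minus strand of chromosome 9 (GENCODE M21, GRCm38), Col6a6 at chr9:105687809-105828160, Col6a5 at chr9:105856078-105960643 and Col6a4 at chr9:105989454-106096783, with 27917 and 28810 bases between them and no other protein-coding gene. The annotation also places an antisense RNA inside Col6a4, and whether counting used the strand was not given in the sources used here. The 250 bases before the RefSeq start of each of the 2 genes that moved apart are shown (GRCm38.p6), Col6a4 from chr9:106096692-106096941 and Col6a5 from chr9:105960644-105960893, both 5′ to 3′ on the minus strand, with the same 4 motifs in capitals.
Col6a4: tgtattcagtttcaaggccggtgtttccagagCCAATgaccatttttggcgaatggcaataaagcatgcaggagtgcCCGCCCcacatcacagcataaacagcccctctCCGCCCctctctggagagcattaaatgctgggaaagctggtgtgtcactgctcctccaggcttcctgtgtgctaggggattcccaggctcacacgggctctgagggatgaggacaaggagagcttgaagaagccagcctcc
Col6a5: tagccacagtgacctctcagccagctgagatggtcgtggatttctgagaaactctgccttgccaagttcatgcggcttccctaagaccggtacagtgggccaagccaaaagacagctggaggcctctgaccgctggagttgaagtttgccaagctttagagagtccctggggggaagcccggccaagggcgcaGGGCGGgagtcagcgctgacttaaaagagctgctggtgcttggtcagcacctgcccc
The Col6a4 window held CCAAT and 2 matches to GGGCGG, and the Col6a5 window held 1 match to GGGCGG and no CCAAT. Col6a6 had 4 and 30 UMIs in all subepithelial cells and was not tested. In mesothelial-like cells it had 16 and 26 UMIs (0.0484 and 0.0283 per 10000), its highest level in both libraries.

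Col23a1, a transmembrane collagen whose ectodomain can be shed, was at 2.46 and 2.52 on the Wif1 side and 0.2415 and 0.148 on the Adamts18 side, where it rested on 5 and 23 UMIs. The sides were far apart in both libraries, 10.2-fold and 17.1-fold, and the mean ln value fell by 0.83 (SE 0.035, adjusted p = 1.66e-07). Levels in the villus, crypt, Fibin type and mesothelial-like cells were 0.0514 to 0.183. Col18a1, the multiplexin that yields endostatin, was 1.81-fold and 1.61-fold lower on the Adamts18 side, at 1.497 and 1.61 against 2.71 and 2.59 (difference -0.39, SE 0.075, adjusted p = 0.00263). Col8a2, a type VIII chain, was also called lower (difference -0.062, adjusted p = 0.00769), a call lost in 1 of 8 alternatives (adjusted p = 0.0595). The Adamts18 side held only 2 and 1 UMIs of Col8a2, and the ratio in 10X 1 was 0.675 with an interval of 0.0762 to 2.80.

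Of the other genes that were higher on the Adamts18 side, Col3a1 was at 63.3 and 58.2 against 18.95 and 25.1. This brought the Adamts18 cells close to villus cells in Col3a1 (69.1 and 63.5), whereas Col1a1 (38.3 and 31.5 against 27.6 and 28.8) and Col1a2 (49.4 and 34.6 against 45.6 and 41.8) were not called. The difference was 1.06 for Col3a1 (SE 0.11, adjusted p = 5.52e-05), 0.20 for Col1a1 (adjusted p = 0.278) and -0.060 for Col1a2 (adjusted p = 0.708).

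Col13a1, a transmembrane collagen of cell contacts, was at 0.435 and 0.783 on the Adamts18 side (9 and 122 UMIs) and 0.0528 and 0.0254 on the Wif1 side, 8.24-fold and 30.8-fold apart (difference 0.33, SE 0.035, adjusted p = 5.1e-05). Col5a2 was at 9.37 and 8.87 against 6.25 and 6.53 (difference 0.325, SE 0.11, adjusted p = 0.0452), a call that was lost in 4 of 8 alternatives (adjusted p from 0.0301 to 0.0799). Col4a5, Col24a1 and Col4a6 were higher by 0.15 to 0.25. Col12a1 and Col27a1, which were raised in the subepithelial cells as a whole, had differences of -0.0046 and 0.0059 between the sides.

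**Figure D4:**
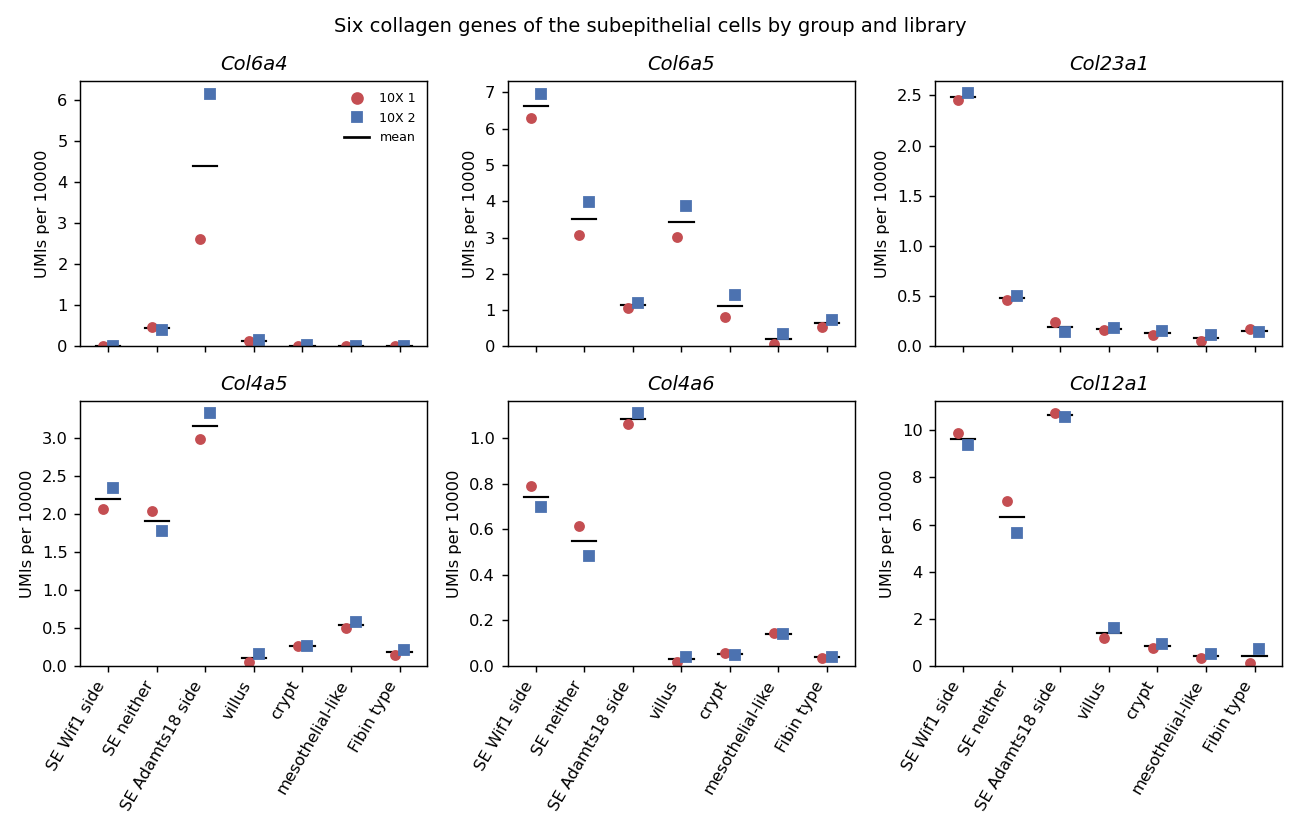
UMIs per 10000 of 6 collagen genes (1 panel each, linear axes from 0) in 7 groups, with a circle for 10X 1, a square for 10X 2 and a line for their mean. Col6a4 stood out in Adamts18 cells (2.61 and 6.14), Col6a5 and Col23a1 peaked on the Wif1 side, and Col4a5, Col4a6 and Col12a1 were high in every subepithelial group.

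The third comparison set crypt cells, which carry the BMP antagonist Grem1, against villus cells, which carry Lpl. Crypt cells had more Col14a1, Col8a1 and Col1a2, and villus cells more Col6a5, Col18a1 and Col27a1. Of the 20 tested members 3 were called higher and 3 lower in crypt cells, beside 13.9% of all 1900 genes called higher and 9.37% lower. On log2 of summed UMIs 10 members were called in all, a count given without its share of all genes. The median difference was 0.009 over members and -0.002 over all genes.

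Col14a1 was at 15.1 and 15.9 in crypt and 6.15 and 6.80 in villus cells, without overlap, a ratio of 2.46 and 2.33 (difference 0.84, SE 0.13, adjusted p = 0.00392). Col8a1 was at 4.47 and 2.66 against 1.12 and 0.553, 3.98-fold and 4.82-fold (difference 0.77, SE 0.16, adjusted p = 0.0111). Both libraries gave crypt cells the higher value although 10X 1 was higher than 10X 2 in each group. Col1a2 was 1.81-fold and 1.60-fold higher (difference 0.45, SE 0.087, adjusted p = 0.00862), and Col1a1, with levels 1.89-fold and 1.56-fold higher, had an adjusted p of 0.066 (difference 0.41).

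Col6a5 was at 0.796 and 1.43 in crypt and 3.01 and 3.86 in villus cells, 3.77-fold and 2.71-fold lower in crypt (difference -0.665, SE 0.047, adjusted p = 0.000271). With Col6a5 high on the Wif1 side and in villus cells, and low in Adamts18, crypt and mesothelial-like cells, its levels did not follow the subepithelial grouping as those of Col12a1 did. Col18a1 was at 1.77 and 1.61 against 3.41 and 2.79 (difference -0.36, SE 0.071, adjusted p = 0.00882). Col27a1 was 2.49-fold and 2.28-fold lower in crypt cells (difference -0.36, SE 0.063, adjusted p = 0.00582). The calls of Col1a2, Col8a1 and Col18a1 were each lost in 1 of 10 alternatives (adjusted p of 0.0921, 0.0529 and 0.0501). Col6a4 had levels 16.1-fold and 5.19-fold lower in crypt than in villus cells but rested on 7 and 105 UMIs in crypt cells, and was not called (difference -0.044, adjusted p = 0.0798).

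Mesothelial-like cells, set against crypt and villus cells together, differed in 7 members, a count that was 3 and 11 under 2 of the alternatives. They had more Col14a1 and Col4a5 and, by a narrow margin, Col8a1, and less Col6a5, Col18a1, Col12a1 and Col27a1. The counts were 3 higher and 4 lower of 20, beside 21.8% and 13.2% of all 1900 genes, and the median difference was 0.001 over members and 0.000 over all genes.

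The lowest Col6a5 of any group was found here, 0.05745 and 0.350 against a mean of 1.90 and 2.645 in crypt and villus cells (difference -0.65, SE 0.040, adjusted p = 3.64e-05). The 10X 2 value lay close to the 0.236 of the immune marker cells in that library, which was 5 UMIs. Col18a1 was at 1.15 and 1.02 (difference -0.35, SE 0.061, adjusted p = 0.00306), Col12a1 at 0.3265 and 0.519 (difference -0.28, SE 0.076, adjusted p = 0.0222, a call lost in 3 of 10 alternatives) and Col27a1 at 0.399 and 0.558 (difference -0.27, SE 0.055, adjusted p = 0.0059, lost in 1 of 10 alternatives at 0.064). All of these lay below both crypt and villus cells in both libraries.

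Col14a1, at 17.7 and 16.9, was 1.67-fold and 1.49-fold the mean of crypt and villus cells (difference 0.62, SE 0.11, adjusted p = 0.00364). Crypt cells alone, at 15.1 and 15.9, were close to this value. Col4a5 was 3.21-fold and 2.73-fold higher (difference 0.19, SE 0.027, adjusted p = 0.00125, lost in 1 of 10 alternatives at 0.0604). Col8a1 was 1.92-fold higher in 10X 1 and 1.38-fold in 10X 2 (difference 0.43, SE 0.14, adjusted p = 0.0451), and was no longer called in 6 of 10 alternatives, with adjusted p from 0.0149 to 0.782. Crypt cells of 10X 2 exceeded the mesothelial-like cells in Col8a1, 2.66 against 2.22.

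**Figure D5:**
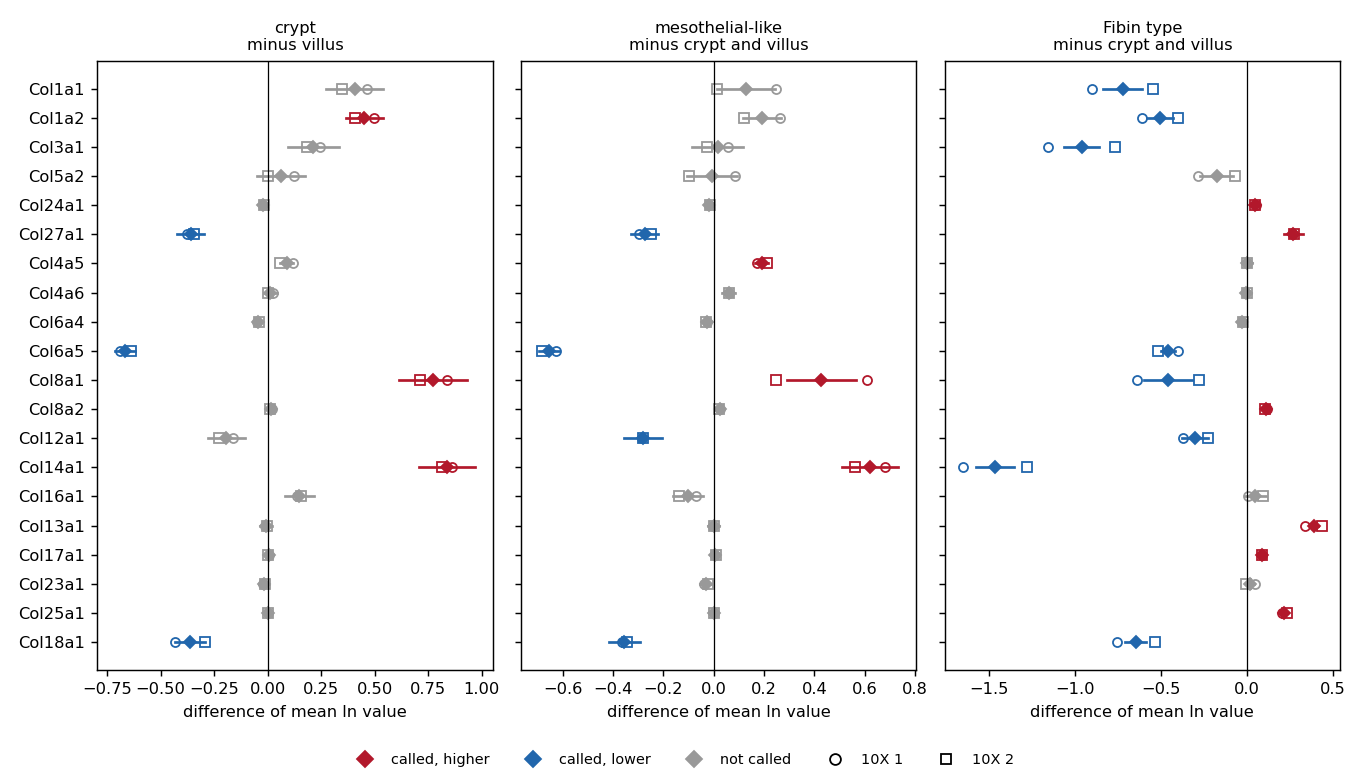
Difference of the mean natural log value for the 20 tested collagen genes in 3 comparisons (crypt minus villus, mesothelial-like minus crypt and villus, Fibin type minus crypt and villus; the horizontal axes differ), with filled diamonds and bars for the estimate and its standard error, open circles for 10X 1 and open squares for 10X 2. Col14a1 was higher in crypt (0.84) and mesothelial-like cells (0.62) and lower in the Fibin type (-1.47).

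The Fibin type had less of the abundant fibrillar genes and of the fibril-associated Col14a1, and had the highest level in both libraries of 3 of the 4 transmembrane collagen genes. Against crypt and villus cells, 6 of the 20 members were called higher and 8 lower, beside 32.8% and 32.9% of all 1900 genes tested. Without Col17a1, Col25a1 and Col6a4, each admitted through 1 group, 4 of 17 were called higher and 8 lower. The median difference was -0.016 over members and -0.002 over all genes. Its comparison and that of the mesothelial-like cells share the crypt and villus cells as their reference.

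Col25a1, a transmembrane collagen known from neurons, had 32 and 241 UMIs in the 100 and 697 Fibin type cells, a level of 0.384 and 0.456. Crypt and villus cells together held 1 and 12 UMIs in many more cells, which gave a ratio of 536 (exact 95% interval for counting error 89.5 to 21800) and 224 (126 to 439) on pooled UMIs. No other group exceeded 0.0128 UMIs per 10000 in either library. The difference in mean ln value was 0.22 (SE 0.0085), given without a test since the gene was admitted only through the Fibin type, and 22.0% and 22.8% of Fibin type cells had a UMI, or 8.00% (3.52 to 15.2%) and 7.77% (5.88 to 10.0%) after thinning to 2000 UMIs. None of the immune marker cells had one.

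Col13a1 was at 0.696 and 1.03 in the Fibin type and at most 0.0620 in crypt and villus cells, 26.7-fold and 19.7-fold (difference 0.39, SE 0.022, adjusted p = 4.48e-06). The Adamts18 cells came next in both libraries, at 0.435 and 0.783. Sox6 cells with neither marker followed, at 0.152 and 0.150 (23 and 203 UMIs). Col17a1, the transmembrane collagen of hemidesmosomes, had 14 and 81 UMIs in the Fibin type (0.168 and 0.153), 30.3-fold and 21-fold the mean of crypt and villus cells. It was admitted only through the Fibin type as well (difference 0.088). Also called were Col8a2 (difference 0.11, SE 0.0080, adjusted p = 1.26e-05), Col27a1 (difference 0.27, SE 0.055, adjusted p = 0.00304) and Col24a1 (difference 0.049). Col8a2 was at 0.216 and 0.221 against at most 0.0422, so the 2 type VIII genes went opposite ways in these cells.

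Among genes that were lower, Col14a1 was at 2.89 and 4.05 in the Fibin type against a mean of 10.6 and 11.3 (difference -1.47, SE 0.11, adjusted p = 1.81e-05). Col3a1 was at 31.0 and 37.5 against 81.3 and 71.45 (difference -0.96, SE 0.10, adjusted p = 9.93e-05), and Col1a1 at 25.3 and 24.9 against 61.55 and 42.85 (difference -0.72, SE 0.11, adjusted p = 0.000895). Both libraries had these genes lower in the Fibin type than in either reference group. Col18a1 was at 0.360 and 0.638, the lowest of the 5 groups in both libraries (difference -0.65, SE 0.061, adjusted p = 5.51e-05). Col1a2, Col8a1, Col6a5 and Col12a1 were lower by differences of -0.51 to -0.30.

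The FACIT genes differed in where they were highest. Of the 5 groups, Col12a1 was highest in the subepithelial cells and Col14a1 in crypt and mesothelial-like cells, whereas Col16a1 lay between 1.65 and 2.86 in all 5 groups of both libraries. Col9a2 and Col20a1 were too rare to be tested. Cells with at least 3 glial genes numbered 4 and 120, of which 1 and 62 also had Sox6 and so counted as subepithelial, and 3 and 46 were in no group. In these glial cells Col20a1 was at 6.98 in 10X 2, with 461 UMIs. The next highest values were 0.222 in the cells of no group and 0.225 in the Sox6 cells with neither Wif1 nor Adamts18. Both sets include some of the same glial cells, and their levels without them were not computed. The 4 glial cells of 10X 1 had 0 UMIs of Col20a1, which allows up to 1.42 per 10000. Col9a2 and Col11a1 were at 0.257 and 0.393 in the same glial cells of 10X 2, above all 5 groups, and at 2.835 and 5.20 in those of 10X 1 (6 and 11 UMIs). Col18a1 was at 10.4 and 7.04. Col12a1 was at 8.51 and 3.995 in the glial cells, against 8.51 and 7.27 in subepithelial cells, and above the other 4 groups. With cells of at least 2 genes of the immune, epithelial, endothelial or glial list left out, the Col12a1 difference between subepithelial and other cells was 1.57. Glial cells held Col16a1 at 2.36 and 5.81, the latter above all 5 groups.

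Cells with all of Actg2, Cnn1 and Lmod1, a smooth muscle set (13 and 81 cells), held Col6a4 at 2.755 and 0.9195, above every group in 10X 1 and every group but the Adamts18 cells in 10X 2. They also held Col23a1 at 1.285 and 1.345. The summed smooth muscle list was 7.58 and 5.11 on the Adamts18 side and 5.84 and 4.96 on the Wif1 side, compared with 86.7 and 79.1 in the smooth muscle cells themselves. With cells of at least 2 of these 3 genes left out, a choice made after seeing the data, 11 members were called between the sides and 16 between subepithelial and other cells. These counts were the same as with those cells kept, and the share of all genes called in this fit is not given here.

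Genes that make, trim, link or bind collagen were followed by 6 lists of 84 genes in all, of which 33 are in the table and 22 could be tested. These lists were chosen with earlier results of these data known, and the enzymes of chain folding are mostly outside the table (2 of 20 in it). In subepithelial cells 8 of the 22 were called higher and 9 lower, beside the 38.4% and 31.3% of all genes given above. Itga1 and Itga11, integrin chains that bind collagen, were among the higher ones: Itga1 was at 6.03 and 4.05 UMIs per 10000 against a mean of 0.675 and 0.827 in the other groups (difference 1.17, adjusted p = 1.11e-05). Ogn, a small leucine-rich proteoglycan that binds fibrils, was at 24.4 and 20.1 against a mean of 4.52 and 5.01 (difference 1.805, adjusted p = 4.48e-06). Fn1, fibronectin, was 2.73-fold and 1.97-fold the mean of the other groups (difference 1.16, adjusted p = 3.17e-05). Villus cells alone were near in Fn1, at 15.4 and 19.3 against 21.8 and 21.2 in subepithelial cells. Tnxb, tenascin-X, which bridges fibrils, fell by 0.96 (adjusted p = 1.73e-05), Matn2 by 0.91 (adjusted p = 6.28e-05) and Cilp by 0.78 (adjusted p = 0.000373). Both genes for propeptide removal that could be tested, Adamts2 and Pcolce2, were lower in subepithelial cells, as were Col3a1 and Col14a1.

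Between the sides of the subepithelial cells 3 of the 22 list genes were higher and 2 lower on the Adamts18 side, no more than the 14.1% and 15.4% of all genes. Aspn, asporin, was at 8.40 and 4.28 against 2.18 and 1.72 (difference 0.80, adjusted p = 0.00173), and P3h2, a collagen prolyl hydroxylase, at 0.725 and 0.546 against 0.158 and 0.203 (difference 0.27, adjusted p = 0.000174). Cd44 was also higher (difference 0.215, adjusted p = 0.0082). Prelp, a proteoglycan that ties fibrils to basement membranes, was 3.45-fold and 3.80-fold lower (difference -1.11, adjusted p = 1.16e-05), and Itga1 2.79-fold and 2.75-fold lower (difference -0.81, adjusted p = 0.000336). The 2 sides therefore differed in a collagen receptor as well as in their type VI chains.

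In crypt against villus cells 3 list genes were higher (Cilp, Ogn and Pcolce2, differences of 0.93, 0.90 and 0.66) and 4 lower, of which Fn1 differed most (difference -0.67, adjusted p = 0.008), beside 13.9% and 9.37% of all genes. Mesothelial-like cells had 5 higher, led by Ogn at 10.6 and 11.1 against 2.96 and 3.25 (difference 1.46, adjusted p = 9.62e-05), Pcolce2, which enhances procollagen trimming, and Cilp, and 5 lower, led by Fn1, Aspn and Itga1, beside 21.8% and 13.2% of all genes. In the Fibin type 3 were higher (Aspn, Cilp and P3h1) and 10 lower, beside 32.8% and 32.9% of all genes, with a median difference of -0.149 over the 22. Fn1 was at 0.864 and 2.98 there against 11.97 and 15.1 (difference -1.80, adjusted p = 5.92e-06), and Adamts2, the procollagen N-proteinase, at 0.372 and 0.579 against 2.885 and 2.41 (difference -0.84, adjusted p = 2.36e-05). Podn, a leucine-rich proteoglycan, was 5.33-fold and 3.18-fold lower (difference -0.79, adjusted p = 0.000162). Fibin type cells thus had the lowest Fn1 and Adamts2 of the 5 groups in both libraries, along with the lowest Col1a1.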

How the data were processed

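Live CD45- EpCAM- CD31- gp38+ cells of the mouse small intestine were captured in 2 10X libraries and on 2 Smartseq2 plates. The authors aligned 10X reads to mm10 with Cell Ranger 3.1.0, used Seurat to filter, divided UMIs by the total of the cell and deposited natural log values of both platforms in 1 integrated table. Smartseq2 reads were processed with tools that the submitters' notes list as TopHat2 2.1.1 and featureCounts. Values below 0 made up 25.1% and 26.1% of the Smartseq2 values, and these plates were left out. In the 10X cells 100% of values were whole multiples of 1 UMI (tolerance 0.01, scale 10000), so UMIs and totals were recovered. Median totals were 8757 and 6874 UMIs per cell (range 465 to 26890). The last gene row is incomplete and was left out.

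The members, groups and gene lists were chosen with earlier results of these data known. Natural log values, averaged in each library and group (at least 10 cells), were tested with limma 3.58.1 in R 4.3.3 (mean trend, library as replicate block), on genes with a UMI in at least 5% of the cells of a group, with Benjamini-Hochberg adjustment over all genes tested. A gene was called at an adjusted p under 0.05 with the same sign in both libraries. Each group had a value in each library, so the libraries paired the groups. The model was also run on simulated data with normal noise and known changes of 1 ln unit. Most differences given here are smaller, so that run does not check them. Statistics were given for at most 4 called members per direction and comparison (3 for the list genes) of largest difference. Members named beyond these were chosen after their values were seen. The tests used the deposited log values, and no count model was fitted although UMIs had been recovered. Doublets were not called, and 1 alternative leaves out the 5% of cells with the highest totals. Shares of cells used thinning to 2000 UMIs (seed 7), which leaves out shallower cells, and exact 95% intervals, which with the limits of 3 counts cover counting error only. Coordinates are of GENCODE M21 and promoters of RefSeq (GRCm38.p6), where 20 of 24 members had an entry. Tables and plots were made in Python 3.11.15 (scipy 1.17.1, matplotlib 3.10.9, pandas 2.3.3, numpy 2.4.6).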

Additional observations from a re-analysis of the deposited data

How the results depend on the processing

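The number of members called stayed within 1.5 times its value in every alternative for subepithelial against other cells (15 to 18, 16 as reported), for the Fibin type (12 to 14, 14 as reported) and for the Adamts18 against the Wif1 side (8 to 12, 11 as reported). On log2 of the summed UMIs per 10000 plus 0.05, 10 members were called between crypt and villus cells in place of 6, and 11 in mesothelial-like cells in place of 7. Calls over all genes on that scale are not given here, so the rise is not a result about collagens. With subepithelial, crypt and villus cells restricted to those carrying 1 of Sox6, Grem1 and Lpl only, which left mesothelial-like cells as they were and 533 and 2173 crypt cells in their reference, the mesothelial-like comparison had 3 member calls in place of 7, and 378 calls over all genes in place of 665. The cause was not tested. Without the replicate block, which drops the pairing of groups by library, 16, 5, 6, 14 and 10 members were called (subepithelial, crypt, mesothelial-like, Fibin type, Adamts18 side), given here without the share of all genes in that fit. Col1a2 in crypt cells (adjusted p = 0.0921), Col8a1 in mesothelial-like cells (0.0726) and Col5a2 on the Adamts18 side (0.0799) were no longer called without it.

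The alternatives were counted for 36 called member differences, at most 4 per direction and comparison by size. Other member differences given with a test, such as that of Col4a6 in subepithelial cells, are outside this count. Of the 36, 0 changed direction, and 325 of 344 tests under alternatives stayed past the threshold. The other 19 concerned Col8a1, Col1a2 and Col18a1 in crypt cells, Col8a1, Col4a5, Col12a1 and Col27a1 in mesothelial-like cells, and Col5a2 and Col8a2 on the Adamts18 side. Leaving out smooth muscle marker cells and thinning every cell to 3000 UMIs were chosen after seeing the data. With 1 library left out there is no residual spread, so each library gives a difference with no test and no count of calls. All 36 called differences counted above had 1 sign in both libraries, which the call requires. The Adamts18 comparison was not run on thinned cells or on cells with 1 of Sox6, Grem1 and Lpl only, where 10X 1 kept under 10 Adamts18 cells. With 2 libraries of unknown mice, the error covers the spread between these libraries alone, and Adamts18 cells of 10X 1 number 18.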
